A study of Mus musculus with 6 samples.

Results

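The MYC, MAX and MXD network is a set of 10 genes, Myc, Max, Mxd1, Mxd3, Mxd4, Mxi1, Mnt, Mga, Mlx and Mlxip, taken by symbol from the 49315 genes of the count table. The set was chosen by a reading of this same comparison, in which the counts of Myc were seen to rise while those of proliferation genes fell, so the values of Myc and of the proliferation genes are given as a description, with no p, although they were part of the fit over all genes. The other 9 members entered by name. RNA was sequenced from RAW264.7 cells, a macrophage line from mouse of wild-type genotype, treated for 24 h with SKI-II at 4 μg/mL, a small molecule known as an inhibitor of sphingosine kinase, or with DMSO, its vehicle, in 3 libraries each. The question was how SKI-II changes the expression of the genome in these cells. The labels do not say whether the 3 libraries of a group came from separate cultures. The paper refers treatment and extraction to its qPCR assay, for which it gives 3 biological replicates per condition. The labels do not link these to the libraries, so each p measures the spread between these libraries, which may be technical in part. RAW264.7 is 1 transformed line, so all libraries share its genetic background.

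MYC is a transcription factor that binds DNA only as a pair with MAX, at the letters CACGTG, called the E-box, and it drives genes of growth, ribosome production and cell division. MXD proteins and MNT compete with MYC for MAX and recruit the SIN3 corepressor to the same sites, MGA joins MAX to a Polycomb complex known as PRC1.6, and MLX forms a parallel arm with MLXIP, also called MondoA, which responds to glucose. MYC has paralogs, MYCN and MYCL, which bind MAX in the same way, and in most adult cell types MYC is the one in use. All 3 genes were counted here.

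Of the 9 members with a promoter in the RefSeq table of GRCm38.p6, 3 held the E-box within the 250 bases before the start of the gene. By promoters, these were 3 of 11, or 27.3%, against 6.02% of all 32851 promoters in the table. The letters read the same on both strands. Myc has no entry in that table. The matches are shown because they are the letters to which the proteins of this network bind, and they lay in genes that had different values below, Mlx higher with SKI-II and Mxd4 and Mnt not passing the test. Each stretch is 46 bases long, on the strand of its gene, with the E-box in capitals. They lie at chr5:34187904-34187949 on the minus strand for Mxd4, at chr11:74830781-74830826 on the plus strand for Mnt and at chr11:101087230-101087275 on the plus strand for Mlx.
Mxd4: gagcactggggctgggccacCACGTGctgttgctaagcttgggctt
Mnt: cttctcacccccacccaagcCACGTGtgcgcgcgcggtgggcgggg
Mlx: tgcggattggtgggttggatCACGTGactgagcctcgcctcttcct
A match describes these letters and shows no binding in these cells.

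The libraries held between 12495957 and 20050677 counts. Values below are normalized counts, which are the deposited counts divided by library sizes scaled with TMM factors and brought to the size of a mean library, and 1 normalized count stands for about 1 read. Testing was by edgeR's quasi-likelihood method over the 12274 genes with enough reads, all 10 members among them, and a gene was called at an adjusted p (Benjamini-Hochberg) below 0.05. Standard errors (SE) are those implied by that test. Of the 10 macrophage markers, all had reads, and their summed level lay between 9010 and 12154 CPM (counts scaled to a common library total) in DMSO and between 5725 and 8078 in SKI-II. Lyz2 held the highest count of any of them, 4 of the 10 fell, 2 rose and 4 did not pass, while 19.7% of all tested genes fell and 18.4% rose, and the markers' median log2 fold change was -0.15. The 5 epithelial markers were at 0 in every library, and no fibroblast or T cell marker exceeded 18 counts in a library, with Cd3g and Cd8a at 0 in all 6. In RNA from whole cultures, fewer cells that make a transcript and less of it per cell cannot be told apart.

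Myc had very few counts with DMSO and a fitted level 9.45-fold higher with SKI-II. Myc (ENSMUSG00000022346, chromosome 15, 61985391 to 61990374, plus strand of GRCm38) had 8 counts in each of the 3 DMSO libraries, and SKI-II replicates 1, 2 and 3 held 116, 84 and 45. On the normalized scale these were 7.77, 10.1 and 7.92 with DMSO and 130, 80.2 and 36.7 with SKI-II. The groups did not overlap, and SKI-II replicate 3 lay closest to the DMSO libraries. The mean went from 8.60 ± 1.31 (SD, n = 3) to 82.2 ± 46.6 (SD, n = 3). The log2 fold change was 3.24 in edgeR's fit and lay between 2.75 without SKI-II replicate 1 and 3.60 without SKI-II replicate 3.

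Mycn, not Myc, was the abundant MYC-family transcript of these cells per length. Mycn (ENSMUSG00000037169, chromosome 12, 12936093 to 12941914, minus strand of GRCm38) is not among the 10 genes and was read as the paralog that shares MAX with Myc. It had 16237, 13613 and 20036 counts in DMSO replicates 1 to 3, against 6375, 10847 and 17101 in the SKI-II replicates. These were 0.103% to 0.116% of all counts of a DMSO library and 0.0449% to 0.0853% of a SKI-II library. Mycn fell. The normalized counts were 15771, 17200 and 19840 with DMSO and 7133, 10350 and 13933 with SKI-II, so that the groups did not overlap, and the log2 fold change was -0.75 (SE 0.22, adjusted p = 0.0247 in edgeR's quasi-likelihood test). Mycn was no longer called in edgeR's test if DMSO replicate 2 (adjusted p 0.0641), DMSO replicate 3 (0.0563) or SKI-II replicate 2 (0.0779) was absent. Among the SKI-II libraries, replicate 1 had the most Myc and the least Mycn, and replicate 3 the least Myc and the most Mycn. The third paralog, Mycl, had 1 count in SKI-II replicate 1 and 0 in the other 5 libraries, too few for a test.

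**Figure D1:**
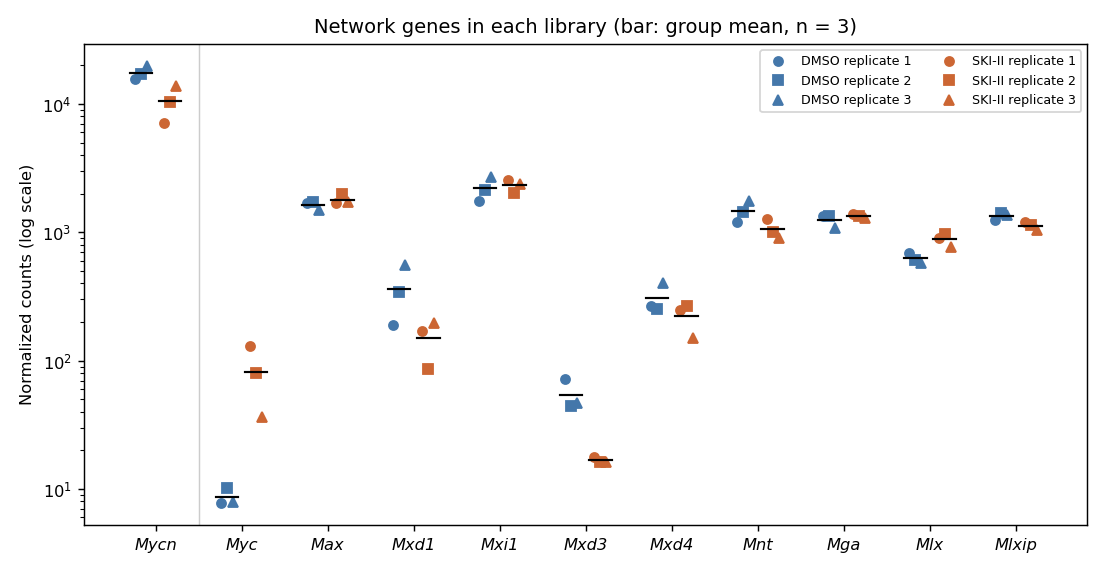
Normalized counts (log axis) of Mycn and the 10 members in each of the 6 libraries, with circles, squares and triangles for replicates 1, 2 and 3 and a bar for the mean of 3 libraries. Myc sits near 10 in DMSO and between 36.7 and 130 in SKI-II, while Mycn is at 7133 or above in every library.

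Levels of different genes were compared per length, as CPM divided by the length of the annotated exons in kilobases. On this scale Myc was at 0.186, 0.236 and 0.171 in the DMSO libraries and at 3.00, 1.85 and 0.826 in the SKI-II libraries. The level of Mycn was 312, 331 and 353 with DMSO and 136, 197 and 259 with SKI-II. Mycn thus stood at 1714 ± 333 times Myc in DMSO (SD, n = 3) and at 155 ± 141 times Myc in SKI-II (SD, n = 3), or 75.9 times without SKI-II replicate 3. Summed over both paralogs, a quantity chosen after the counts of Mycn were seen, the level was 312, 331 and 353 with DMSO and 139, 198 and 260 with SKI-II. Myc made up 0.0484% to 0.0712% of that sum in DMSO and 0.318% to 2.16% in SKI-II. The sum was lower in every SKI-II library than in any DMSO library.

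Among the 10 members, Max had the highest level per length in DMSO at 28.4 ± 3.56 (SD, n = 3), followed by Mxi1 between 16.9 and 23.3, Mnt at 19.6, Mlx at 19.6, Mlxip at 10.1, Mga at 5.10, Mxd1 at 3.12, Mxd4 at 2.23, Mxd3 at 1.44 and Myc at 0.198. The ranges of Mxi1, Mnt and Mlx overlapped, as did those of Mga and Mxd1, of Mxd1 and Mxd4 and of Mxd4 and Mxd3, so these neighbours in the order are not separated by their libraries. In SKI-II the order of mean levels per length was Max at 31.1, Mlx at 27.5, Mxi1 at 21.2, Mnt at 14.3, Mlxip at 8.45, Mga at 5.44, Myc at 1.89, Mxd4 at 1.64, Mxd1 at 1.32 and Mxd3 at 0.442. The ranges of Max and Mlx, of Mlx and Mxi1, of Myc and Mxd4 and of Mxd4 and Mxd1 overlapped there. Myc was thus the lowest of the 10 in every DMSO library, and its SKI-II range shared values with those of Mxd4 and Mxd1. Per length of the longest transcript in place of all exons, the levels of Max, Mxd4 and Mxd1 were 1.85, 1.83 and 1.52 times as high. Max stayed the highest in both groups and Myc the lowest in DMSO, but in SKI-II Mxi1 at 28.7 came before Mlx at 27.9, and Mxd4 at 3.00 before Myc at 2.20.

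The genes that oppose MYC, which are Mxd1, Mxd3, Mxd4, Mxi1, Mnt and Mga, summed to a level per length of 45.2, 51.2 and 58.2 with DMSO and 50.7, 40.7 and 41.5 with SKI-II. The groups overlapped, since SKI-II replicate 1 lay above DMSO replicate 1. This sum was 267 ± 65.0 times the level of Myc in DMSO (SD, n = 3) and 29.7 ± 18.0 times in SKI-II (SD, n = 3), or 19.5 times without SKI-II replicate 3. The level of Mycn was 6.90, 6.45 and 6.07 times the opposing sum in DMSO, and 2.69, 4.83 and 6.24 times in SKI-II, where replicate 3 reached the DMSO range. Against Max, Mycn stood at 10.2 to 14.5 times its level in DMSO and at 4.60 to 8.87 times in SKI-II, or at 6.80 to 9.66 and 3.06 to 5.90 times per length of the longest transcript.

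**Figure D2:**
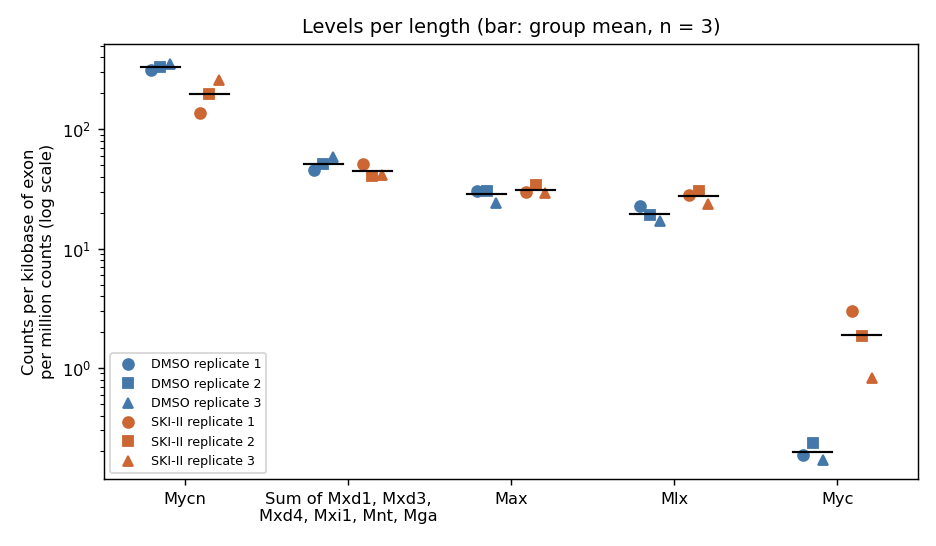
Level per length (CPM per kilobase of exon, log axis) of Mycn, of the summed genes that oppose MYC, and of Max, Mlx and Myc in each library, with a bar for the mean of 3. The summed opposing genes lie between 40.7 and 58.2 in all 6 libraries, below every value of Mycn and above every value of Myc.

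Of the 9 members other than Myc, 2 fell, 1 rose and 6 did not pass the test. Among all tested genes 18.4% were called higher and 19.7% lower, and the members' counts of 1 and 2 in 9 lie near these shares. When a change past 1 or -1 on the log2 scale was also required, Mxd3 and Mxd1 were called lower and no member higher, while 7.44% of all genes were called lower and 8.28% higher in this way. Without that requirement Mlx was called higher by edgeR, DESeq2 and limma-voom, and it was also the only 1 of the 9 higher at an unadjusted p below 0.05. Median log2 fold changes were -0.25 over the 9 members and 0.00377 over all tested genes.

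Mxd3 (chromosome 13, 55325168 to 55329823, minus strand), an MXD repressor known from dividing cells, changed most among the 9. Its counts were 74, 35 and 47 with DMSO and 16, 17 and 20 with SKI-II, or 71.9, 44.2 and 46.5 against 17.9, 16.2 and 16.3 normalized counts. No SKI-II library reached a DMSO library. The log2 fold change was -1.69 (SE 0.33, adjusted p = 0.00327 in edgeR's quasi-likelihood test), a 3.23-fold lower value, and this call held in every alternative tried, with adjusted p of up to 0.0175 in edgeR's test without SKI-II replicate 2. Proliferation genes were lower in the same libraries, and their part in the value of Mxd3 was not tested. Exons of Prelid1 cover 105 bases of Mxd3 on the other strand, 4.43% of its exon length. Prelid1 had 4630, 4977 and 6152 normalized counts with DMSO and 5984, 4878 and 5127 with SKI-II. Its part in the count of Mxd3 was not tested.

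Mxd1 (chromosome 6, 86647042 to 86669161, minus strand), the founding member of the MXD repressors and known to rise as myeloid cells mature, also fell, with far wider spread. It had 188, 341 and 553 normalized counts with DMSO and 169, 85.9 and 196 with SKI-II. DMSO replicate 1 lay below SKI-II replicate 3, so the groups overlapped. The log2 fold change of -1.26 (SE 0.39, adjusted p = 0.0287 in edgeR's test) lost its call when any of 4 libraries was left out, with adjusted p of 0.0601 and 0.0976 without DMSO replicates 2 and 3 and of 0.0705 and 0.0958 without SKI-II replicates 1 and 2, and the value was -0.81 without DMSO replicate 3.

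The remaining repressors that pair with MAX did not pass the test. Mxd4 (chromosome 5, 34173883 to 34187720, minus strand) had 265, 251 and 402 normalized counts with DMSO and 248, 269 and 150 with SKI-II (log2 fold change -0.47, SE 0.26, adjusted p = 0.185 in edgeR's test). The groups overlapped, with DMSO replicate 3 high and SKI-II replicate 3 low. Mnt (chromosome 11, 74830920 to 74845725, plus strand), the most widely expressed MAX partner of this class, had 1202, 1443 and 1755 normalized counts with DMSO and 1278, 1007 and 899 with SKI-II (log2 fold change -0.47, SE 0.18, adjusted p = 0.0601). SKI-II replicate 1 lay within the DMSO range, and the gene was called lower by DESeq2 (adjusted p = 0.0486), without a filter on low counts (0.0158), in the absence of DMSO replicate 1 (0.0190) or of SKI-II replicate 1 (0.0296).

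Mxi1 (chromosome 19, 53310518 to 53375810, plus strand), which encodes the repressor also known as MXD2, had 1765, 2138 and 2713 normalized counts with DMSO and 2577, 2013 and 2372 with SKI-II, with a log2 fold change of 0.07 (SE 0.17, adjusted p = 0.762). Mga (chromosome 2, 119897228 to 119969581, plus strand) had 1333, 1337 and 1081 against 1400, 1337 and 1283 (log2 fold change 0.10, SE 0.13, adjusted p = 0.571). For both genes the groups overlapped, and both p values are from edgeR's quasi-likelihood test. Max (chromosome 12, 76937269 to 76962201, minus strand), the shared partner of the whole network, had 1684, 1730 and 1491 normalized counts with DMSO and 1692, 1978 and 1715 with SKI-II. Its groups overlapped as well, with a log2 fold change of 0.13 (SE 0.12, adjusted p = 0.418 in the same test).

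In the MLX arm, Mlx rose and Mlxip did not pass the test. Mlx (chromosome 11, 101087277 to 101092207, plus strand), the partner of MondoA, had 692, 609 and 576 normalized counts with DMSO and 901, 973 and 771 with SKI-II. No DMSO library reached the SKI-II range, with a log2 fold change of 0.49 (SE 0.14, adjusted p = 0.0185 in edgeR's test). That call too was lost without any of 4 libraries, at adjusted p of 0.0823 and 0.0532 without DMSO replicates 2 and 3 and of 0.0559 and 0.0830 without SKI-II replicates 1 and 2 in that test. Psmc3ip on the other strand shares 385 bases, 19.3% of the exon length of Mlx, and had 301, 251 and 234 normalized counts with DMSO and 54.8, 63.9 and 58.7 with SKI-II, and its part in the count of Mlx was not tested.

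Mlxip (chromosome 5, 123394798 to 123457932, plus strand) encodes MondoA itself. It had 1259, 1421 and 1363 normalized counts with DMSO and 1208, 1146 and 1035 with SKI-II. Every SKI-II library lay below every DMSO library, by a small step, with a log2 fold change of -0.25 (SE 0.12, adjusted p = 0.122 in edgeR's test). Such separation was common, since 25.5% of all tested genes lay wholly lower and 24.8% wholly higher in SKI-II, and of the 9 members Mxd3 and Mlxip lay wholly lower and Mlx wholly higher. Mlxipl, which encodes the third partner of MLX known as ChREBP, had no counts in any library.

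**Figure D3:**
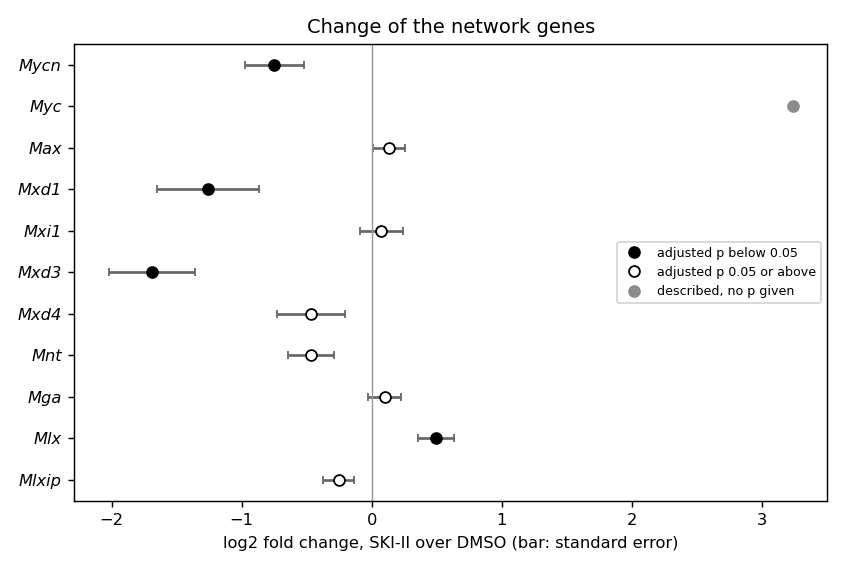
Log2 fold change of SKI-II over DMSO for Mycn and the 10 members from edgeR's fit, with the standard error as a bar, filled points for an adjusted p below 0.05, open points for the rest and grey with no bar for Myc, which is described with no p. Myc stands alone on the right at 3.24, and Mxd3, Mxd1 and Mycn lie on the left at -1.69, -1.26 and -0.75.

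Txnip and Arrdc4, the arrestin genes best known as targets of MondoA and MLX, did not pass the main test. Txnip had 7019, 7125 and 18946 normalized counts with DMSO and 4642, 6333 and 10713 with SKI-II (log2 fold change -0.61, SE 0.40, adjusted p = 0.266 in edgeR's test), and this change became 0.03 without DMSO replicate 3. Each SKI-II library was lower than the DMSO library of the same number, and Txnip was called lower by edgeR in a fit blocked on replicate number (-0.53, adjusted p = 0.0121) and with no filter on low counts (adjusted p = 0.00117). Arrdc4 had 69.9, 85.9 and 161 with DMSO and 128, 99.2 and 155 with SKI-II (log2 fold change 0.26, SE 0.33, adjusted p = 0.559). In both groups replicate 3 had the highest value of Txnip, Arrdc4, Mxd1 and Mycn. DMSO replicate 3 was also the highest of the DMSO libraries for Mxd4, Mxi1 and Mnt, while SKI-II replicate 3 was the lowest of its group for Mxd4 and Mnt.

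The genes whose pattern over the 6 libraries was most like that of Myc, by Pearson correlation of log2 CPM, were Ric8a, a chaperone of G protein subunits, Cyth2, an exchange factor for ARF, and Zscan26, a zinc finger gene, with r of 0.998, 0.998 and 0.997. They share the libraries and the step between the groups with Myc, and 528 of 12099 genes compared had an r above 0.95.

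Proteins that work with MYC were described next, by lists written from general knowledge. Of 14 MYC coactivators with MIZ1, 5 fell, 0 rose and 9 did not pass edgeR's test, with 1 higher at an unadjusted p below 0.05, 1 higher by DESeq2 and 0 by limma-voom. That is 35.7% lower, where 19.7% of all tested genes were lower and 18.4% higher. Their median log2 fold change was -0.18. The largest were Ruvbl1, Ruvbl2 and Actl6a, at -0.90, -0.90 and -0.75 (edgeR's adjusted p 0.00186, 0.000607 and 0.00258), all subunits of the TIP60 and INO80 chromatin complexes. Wdr5, which helps MYC to find chromatin, and Zbtb17, which encodes MIZ1, the factor through which MYC represses genes, complete the count at -0.61 and -0.59. Ruvbl1 went from 1554 ± 45.9 to 830 ± 175 normalized counts (SD, n = 3 in each group).

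Of 17 tested genes for the stability of MYC proteins, 6 fell, 2 rose and 9 did not pass. These shares were 35.3% lower and 11.8% higher, against 19.7% and 18.4% of all tested genes. With Aurka and Skp2 left aside, a choice made after the values were seen, 4 of 15 fell, or 26.7%. Aurka, a mitotic kinase that also shields MYCN from degradation, went from 2231 ± 69.1 to 542 ± 143 normalized counts (SD, n = 3), at a log2 fold change of -2.04. Cip2a, whose product blocks the phosphatase that destabilizes MYC, and Skp2, a ubiquitin ligase subunit for MYC and for p27, had log2 fold changes of -1.37 and -1.19, with an adjusted p of 0.00219 for Cip2a in edgeR's test. Fbxw7, the ligase subunit that marks MYC and MYCN for the proteasome, rose from 565 ± 26.6 to 830 ± 87.5 (SD, n = 3), at a log2 fold change of 0.56 (SE 0.13, adjusted p = 0.00798 in the same test). Bin1, which binds MYC and restrains it, was the other gene that rose, at 0.42, and 1 rose without DMSO replicate 2 or SKI-II replicate 2, where 1507 and 1724 of all genes were called higher against 2255 with all libraries. The list's median was -0.07. Aurka and Skp2, which are counted among the 6, are also genes of dividing cells and are described here with no p of their own, and 20 proliferation genes had a median log2 fold change of -2.35 in these libraries, whose part in these values was not tested.

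Of 18 SIN3 subunits and partners, through which MXD proteins and MNT silence genes, 5 fell, 0 rose and 13 did not pass edgeR's test, with 2 higher at an unadjusted p below 0.05, 1 by DESeq2 and 0 by limma-voom. Rbbp7, a histone-binding subunit, Sin3a, the scaffold, and Hdac2, a histone deacetylase, had log2 fold changes of -1.31, -0.62 and -0.56 (adjusted p = 8.32e-05, 0.00208 and 0.00341). The median over the list was -0.05, and 27.8% were lower against 19.7% of all tested genes. Of 11 PRC1.6 partners of MGA, 5 fell, 0 rose and 6 did not pass, with 0 higher at an unadjusted p below 0.05 and by DESeq2 and limma-voom. Cbx3, Tfdp1 and L3mbtl2 had values of -1.19, -0.76 and -0.52 (adjusted p = 0.000219, 0.00487 and 0.0133 in edgeR's test), the last of which was 0.0501 without DMSO replicate 2. The median of these partners was -0.46, with 45.5% lower against 19.7% of all tested genes, and 3 fell without DMSO replicate 2, where 14.0% of all genes were called lower.

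Genes known as MYC targets fell or did not pass the test. Of 36 targets of ribosome biogenesis, 10 fell, 0 rose and 26 did not pass edgeR's test, with 1 higher at an unadjusted p below 0.05, 1 by DESeq2 and 0 by limma-voom, and a median log2 fold change of -0.24. That is 27.8% lower against 19.7% of all tested genes, and without DMSO replicate 2, where 14.0% of all genes were called lower, 6 fell. Nolc1, Pa2g4 and Fbl, which serve the nucleolus, had log2 fold changes of -1.03, -0.99 and -0.96 (adjusted p = 0.000788, 0.00118 and 0.00148). Ncl, the nucleolar protein nucleolin, went from 28209 ± 2040 to 20914 ± 1492 normalized counts (SD, n = 3), which is a log2 fold change of -0.43 (adjusted p = 0.0387 in edgeR's test). In that test the adjusted p was 0.0806 and 0.135 without DMSO replicates 1 and 2, and 0.0821, 0.0764 and 0.0782 without SKI-II replicates 1, 2 and 3.

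Most targets of metabolism and growth fell. Of 30, 20 fell, which is 66.7% against 19.7% of all tested genes, 0 rose and 10 did not pass, with 0 higher at an unadjusted p under 0.05 by edgeR and by DESeq2 and limma-voom, and the median log2 fold change was -0.63. Shmt1, of folate and serine metabolism, fell from 434 ± 115 to 81.9 ± 29.1 normalized counts (SD, n = 3), at a log2 fold change of -2.40 (SE 0.29, adjusted p = 0.000207). Slc1a5, a glutamine transporter, and Impdh2, the limiting enzyme of guanine nucleotide synthesis, had values of -2.04 and -1.90 (adjusted p = 1.80e-05 and 8.71e-05). Cad, which starts pyrimidine synthesis, had one of -0.87 (adjusted p = 0.000355). Proliferation genes, whose fall helped to choose this set, were lower in the same libraries (median log2 fold change -2.35). Their part in the values of the metabolism and ribosome biogenesis targets was not tested. Some classical targets did not pass. Odc1, which starts polyamine synthesis, had 4166, 4110 and 4415 normalized counts with DMSO and 4317, 4259 and 4878 with SKI-II (log2 fold change 0.08, adjusted p = 0.607), and Cdk4 had a log2 fold change of -0.14 (adjusted p = 0.369), all in edgeR's test.

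Genes that MYC is known to repress lay mostly higher, 7 with a log2 fold change above 0 and 1 below. Of 12, 8 had enough reads, of which 4 rose, 1 fell and 3 did not pass, with a median log2 fold change of 0.79. Among all tested genes 18.4% were higher and 19.7% lower. Gadd45a, Ndrg1 and Ddit3 rose by 2.74, 1.81 and 1.67 on the log2 scale (adjusted p = 0.00154, 0.00055 and 0.00552 in edgeR's test), and Klf4 completes the count at 1.38. Gadd45a was at 3.44 without DMSO replicate 3. Gadd45a and Ddit3 are known as targets of the ATF4 stress response and Ndrg1 as a gene of hypoxia. Of the cell cycle inhibitors, Cdkn1b, which encodes p27, fell from 673 ± 110 to 418 ± 8.92 normalized counts (SD, n = 3), which is a log2 fold change of -0.69 (adjusted p = 0.00592). Cdkn1a, which encodes p21, had 6502 ± 1561 and 6699 ± 1455 (SD, n = 3), which is a log2 fold change of 0.04 (adjusted p = 0.889), and Cdkn2b had no counts in any library.

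**Figure D4:**
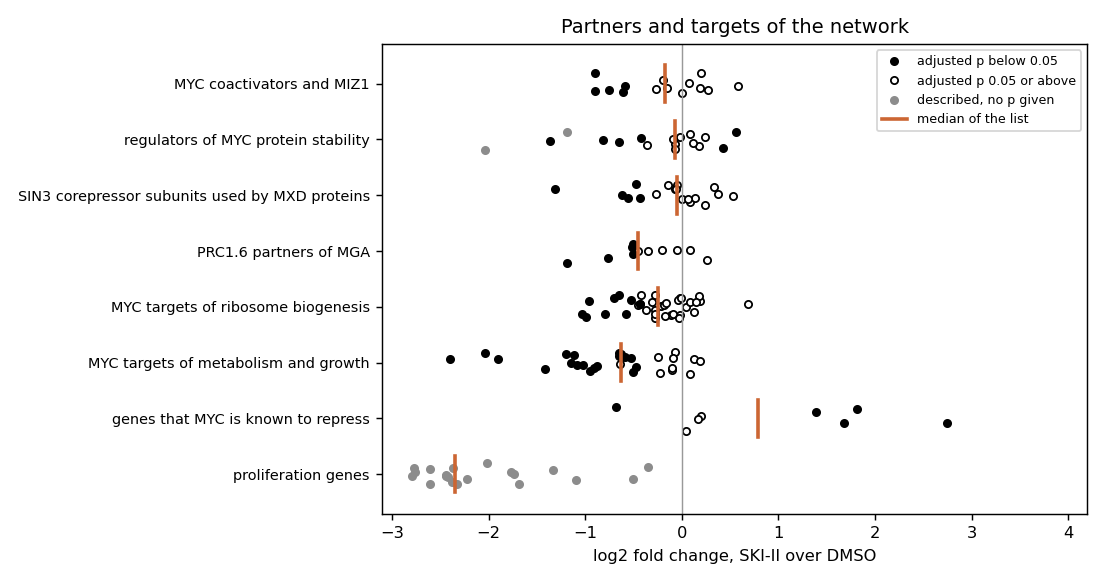
Log2 fold change of SKI-II over DMSO for each tested gene of 8 lists of partners and targets, with filled points for an adjusted p under 0.05 by edgeR, open points for the rest, grey for the proliferation genes, Aurka and Skp2, which are described with no p, and an orange line for each median. The medians lie between -0.63 and -0.05 for the partner and target lists, at 0.79 for the repressed genes and at -2.35 for the proliferation genes.

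The proliferation genes that helped to choose this set were described only. All 20 had a log2 fold change below 0, with a median at -2.35 and a range from -2.80 for Mcm5 to -0.35 for Mcm2. Mcm5, a subunit of the replicative helicase, had 5121, 5001 and 4280 normalized counts with DMSO and 570, 853 and 646 with SKI-II. For Ccna2, which encodes cyclin A2, and Aurkb, a mitotic kinase, the log2 fold changes were -2.77 and -2.76. SKI-II replicate 1, which had the most Myc, had the lowest values of Mcm5, Ccna2 and Aurkb among the 6 libraries. Replicate 3, with the least Myc, was the highest SKI-II library for Ccna2 and Aurkb, while replicate 2 was the highest for Mcm5. A link between Myc and these genes was not tested.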

How the data were processed

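RNA from RAW264.7 cells was measured in 6 poly(A)-selected libraries. The authors trimmed reads with Trimmomatic 0.36 and mapped them with STAR 2.5.2b. The submitters' processing notes also name featureCounts, Subread 1.5.2 and DESeq2. The table used here, as the authors deposited it, holds raw counts per Ensembl gene. For the counting, the strandedness, build and annotation were not given in the sources used here. Overlapping genes are therefore uncertain. Columns were matched to samples by group name and replicate number.

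GENCODE M21 (GRCm38) named 49056 of 49315 identifiers, and the rest held 0.0102% of the counts. Counts were fitted with edgeR 4.0.16 in R 4.3.3 (quasi-likelihood test, TMM scaling, expression filter at 10 counts per library and 15 in total, Benjamini-Hochberg adjustment over 12274 genes). Standard errors are the log2 fold change divided by the root of the F statistic. The mean scaled library size was 16042438 counts, and the common coefficient of variation was 17.5%. Libraries of a group differed beyond sampling noise (chi-square divided by its degrees of freedom 15.4 to 58.1). Programs were tested on simulated counts. Alternatives were DESeq2 1.42.0, voom of limma 3.58.1, RLE scaling, library size alone, 2 other filters, each library left out, the replicate number as a block, the study's fold change condition and, for levels, the longest transcript.

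Named genes are the members, 12 fixed genes, in each list the 3 called genes that changed most and the one that changed most the other way, the 3 proliferation genes with the largest change, and the 3 most like Myc. Wdr5, Zbtb17, Bin1, Lyz2, Klf4, Psmc3ip, Prelid1 and Mcm2 were named after their values were seen. Members, lists and rule were chosen with earlier results of these data known, and lists were written from general knowledge. Figures were drawn with matplotlib 3.10.9.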

Additional observations from a re-analysis of the deposited data

How the results depend on the processing

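Over the named genes, 580 of the values under an alternative kept their direction and their side of the threshold or, for Myc and the other described genes, stayed within the spread between libraries, 17 lost the call, 6 gained it and 7 changed sign. With each library left out, the values that changed sign lay between -0.0792 and 0.25 for Mxi1, -1.01 and 0.0303 for Txnip, and -0.10 and 0.26 for Cdkn1a, none of them called. Requiring 10 counts in every library leaves out Myc by construction. Among the 9 members other than Myc, 1 to 3 were called lower and 0 or 1 higher with each library left out, and 0 were called higher with the fold change condition.

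With that condition, 1016 genes were called higher and 913 lower over the whole table. By the same condition the numbers called were 0 lower for the coactivators, 0 higher and 3 lower for MYC stability, 1 lower for SIN3 and 1 lower for PRC1.6. They were 1 lower for ribosome biogenesis, 9 lower for metabolism, and 4 higher and 0 lower for the repressed genes. The numbers called higher under DESeq2, no filter and the replicate block were each 1 for the coactivators, and 1, 1 and 2 for SIN3. Ribosome biogenesis had 1 higher under DESeq2 and 1 with at least 10 counts in every library. With each library left out, the coactivators had 0 to 1 higher, MYC stability 1 to 2 higher, SIN3 0 to 2 higher, PRC1.6 3 to 6 lower and ribosome biogenesis 6 to 11 lower, while over all genes 1507 to 2227 were higher and 1766 to 2387 (14.0% to 18.9%) lower. The cause of these shifts was not tested, apart from the condition itself. Per length of the longest transcript, the sum of Myc and Mycn in DMSO was 409 in place of 332 and the ratio of Mycn to Max in DMSO 7.90 in place of 11.9, by construction, and the ratios of Mycn to Myc, of the opposing genes to Myc and of Mycn to the opposing genes moved by less than the spread between libraries.

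The replicate numbers paired the libraries only in part, with correlations of same-numbered deviations of 0.246, 0.0099 and 0.458. DMSO replicate 3 correlated best with SKI-II replicate 3, against -0.255 and -0.280 with SKI-II replicates 1 and 2. DMSO replicate 1 correlated best with SKI-II replicate 2 (0.296), and DMSO replicate 2 with SKI-II replicate 1 (0.0417). Whether libraries of the same number share a batch was not tested. With the replicate block, 2765 genes were called higher and 2819 lower, against 2255 and 2413 without it, the calls of the 9 members did not change, and Txnip was called lower at -0.53 (adjusted p = 0.0121 in edgeR's test). Myc had 8 counts in each DMSO library, the fewest of the 10 members there, and Mxd3 had 16 to 20 in SKI-II, the fewest there.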
